A study of Homo sapiens with 4 samples.

Results

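The metallothionein family was represented by 8 genes, MT2A, MT1A, MT1E, MT1F, MT1G, MT1H, MT1M and MT1X. They were taken by symbol from the rows of the expression table that lie on an assembled chromosome, which gave 8 of 62077 rows. All 8 lie in a cluster on chromosome 16, from 56642111 to 56718108 in hg19, a span of 75998 bp. RNA-Seq was performed on FaDu, an established line of squamous carcinoma cells of the hypopharynx, to determine which genes respond to hypoxia and to TET1. N-scr was the scrambled control in normoxia and N-si was the TET1 knockdown (TET1-si) in normoxia. H-scr and H-si were the same lines after 19 h in 1% oxygen. All 4 groups carried a lentiviral short hairpin vector, with a scrambled or a TET1 sequence, and each was 1 library. With no replicates, every difference is one between single libraries and no p-value is given. In bulk RNA, fewer cells that express a gene and less RNA per cell cannot be told apart.

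TET1, the target of the knockdown, was lower with the knockdown in each oxygen state. Levels are given in FPKM, fragments scaled by exon length and by library size. TET1 was 0.129 in N-scr against 0.0493 in N-si, and 0.331 in H-scr against 0.122 FPKM in H-si, on about 28, 11, 77 and 26 reads. All 8 squamous and epithelial markers examined were above 0 in all 4 libraries, among them TP63 at 42.1 to 54.8 FPKM. Of these markers 6 were lower and 2 higher in both TET1-si libraries than in the scrambled libraries. KRT5 was 2673 FPKM in N-scr against 524 in N-si, and 3992.5 in H-scr against 1430.3 in H-si. CDH1, the epithelial cadherin, was 179.3 FPKM in N-scr against 266.9 in N-si and 291.9 in H-scr against 398.9 in H-si, and EPCAM was also higher. Of the markers of other cell types, PTPRC was at most 0.0101 FPKM and COL1A2 was listed at 0 in all 4. The row of PECAM1 lies on a patch sequence and was not used. COL1A1 was 5.29 (N-scr), 14.0 (N-si), 28.6 (H-scr) and 37.0 FPKM (H-si). The part of these marker differences in the metallothionein results was not tested. The depth recovered from the FPKM values was 22500000 to 24600000 reads per library.

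Metallothioneins are small, cysteine-rich proteins that bind zinc and copper, and also toxic metals such as cadmium. Their genes are switched on when free zinc rises, through the zinc-sensing transcription factor MTF1, which binds metal response elements in their promoters. Glucocorticoids and oxidants are other known inducers. MT2A and the MT1 genes are expressed in many tissues, while MT3 is best known from the brain and MT4 from stratified squamous epithelium.

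The promoters are shown because these elements are the family's best known control sequences. Of the 8 members, 3 matched the RefSeq promoter table (GRCh38.p14), and the other 5 (MT1A, MT1E, MT1F, MT1G and MT1M) did not. The 250 bases before the annotated start follow, all on the plus strand and written 5′ to 3′. In that build, which is not the hg19 used for the genes, they are chr16:56608334-56608583 for MT2A, chr16:56682220-56682469 for MT1X and chr16:56669564-56669813 for MT1H. Capitals mark the core of a metal response element on either strand.
MT2A: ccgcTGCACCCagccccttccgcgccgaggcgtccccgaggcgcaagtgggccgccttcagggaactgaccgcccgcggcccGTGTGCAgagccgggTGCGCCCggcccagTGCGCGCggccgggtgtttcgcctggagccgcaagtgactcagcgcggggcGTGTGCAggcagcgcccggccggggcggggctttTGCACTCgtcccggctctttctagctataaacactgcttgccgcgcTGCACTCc
MT1X: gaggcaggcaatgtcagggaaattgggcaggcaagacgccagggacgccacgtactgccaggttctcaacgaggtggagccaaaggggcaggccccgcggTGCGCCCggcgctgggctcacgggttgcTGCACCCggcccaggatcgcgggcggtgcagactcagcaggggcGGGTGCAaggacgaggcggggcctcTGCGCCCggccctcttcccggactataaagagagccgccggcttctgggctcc
MT1H: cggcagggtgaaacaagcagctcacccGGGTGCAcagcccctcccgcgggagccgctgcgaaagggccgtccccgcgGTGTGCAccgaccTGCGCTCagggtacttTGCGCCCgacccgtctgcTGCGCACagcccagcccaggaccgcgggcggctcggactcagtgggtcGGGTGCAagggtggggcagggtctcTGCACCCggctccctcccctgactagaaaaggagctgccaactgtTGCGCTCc

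The letters searched for the metal response element were TGCACNC and TGCGCNC on both strands. MT2A held 7 matches, MT1X held 4 and MT1H held 8. At least 1 match was present in 24.8% of the 35116 promoters of the same length, at least 4 in 0.37%, at least 7 in 0.0313% and at least 8 in 0.0171%. The core of a hypoxia response element (ACGTG or GCGTG), the site of hypoxia-inducible factors, had 1 match in MT2A, 1 in MT1X and 0 in MT1H. It was present in 43.2% of all promoters, and the match in MT2A overlaps a metal response element. The core of an antioxidant response element (TGACNNNGC) had 1 match each in MT2A and MT1X and 0 in MT1H, against 10.9% of all promoters. A match describes letters only. MT1H, with the most metal response element matches of the 3, was listed at 0 in all 4 libraries, whereas MT2A was the most abundant member.

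**Figure D1:**
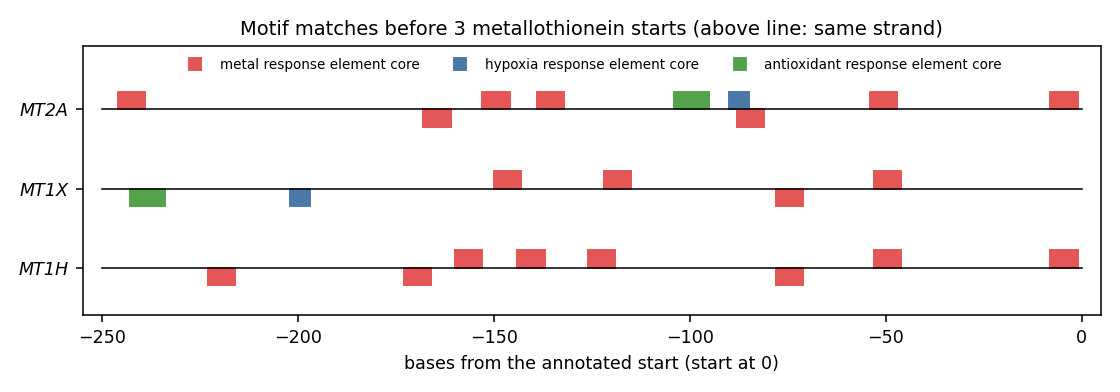
Motif matches in the 250 bases before the annotated start of MT2A, MT1X and MT1H, with the distance from the start in bases on the x axis. Boxes above a line are matches on the gene's strand, and boxes below it are on the opposite strand. The metal response element cores, 7, 4 and 8 in number, outnumber the other motifs in each promoter.

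Family expression was carried by 3 genes. Of the 8 members, 4 averaged 1 FPKM or more across the libraries, which was the filter on low values. MT2A (ENSG00000125148, plus strand, 56642111 to 56643409, 3 exons) was 995.5 (N-scr), 712.7 (N-si), 465.4 (H-scr) and 240.2 FPKM (H-si). It ranked 104th among 19296 protein-coding rows in N-scr and 378th in H-si. MT1E (ENSG00000169715, plus strand, 56659387 to 56661024) was 448.5 (N-scr), 361 (N-si), 158.8 (H-scr) and 94.9 FPKM (H-si). Its rank moved from 258 in N-scr to 1263 in H-si. MT1X (ENSG00000187193, plus strand, 56716336 to 56718108) was 152.6 (N-scr), 78.7 (N-si), 45.8 (H-scr) and 34.9 FPKM (H-si). All 3 genes therefore had the same order of libraries, with N-scr highest, then N-si, then H-scr, and H-si lowest.

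The order held beyond counting error for these 3 genes at each step. Between the middle libraries, the log2 ratio of H-scr to N-si was -0.61 for MT2A (95% counting interval -0.69 to -0.54), -1.18 for MT1E (-1.26 to -1.11) and -0.78 for MT1X (-1.04 to -0.54). The intervals are exact (Clopper-Pearson), use approximate reads and cover counting error only, not differences between cultures. The reads behind MT2A numbered about 4276 in N-scr, 3274 with the knockdown, 2143 in H-scr and 1011 in H-si. MT1E had about 5480, 4718, 2080 and 1137 reads in the same order of libraries. MT1X had about 666, 368, 214 and 149 reads, so its intervals were wider.

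MT1F (ENSG00000198417, plus strand, 56691606 to 56694610) had a different order and a far lower level. It was 3.45 (N-scr), 6.24 (N-si), 3.10 (H-scr) and 5.39 FPKM (H-si), on about 17, 32, 16 and 26 reads. Both TET1-si libraries were above both scrambled libraries. At this depth the interval of the log2 ratio excluded 0 for H-scr against N-si (-1.97 to -0.10), and included 0 for each of the 4 comparisons of the design.

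**Figure D2:**
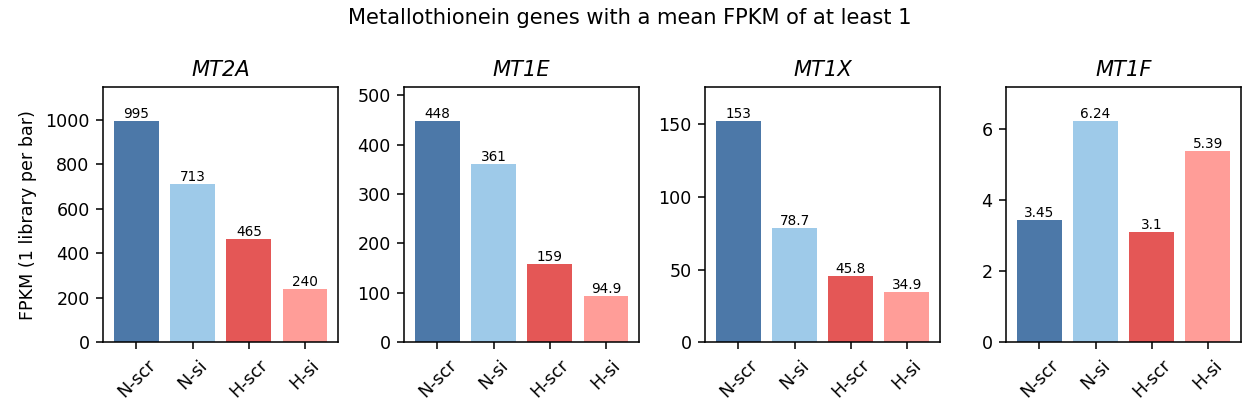
FPKM of the 4 metallothionein genes that averaged 1 or more, with the library on the x axis and 1 bar per library. Each panel has its own axis, which starts at 0. MT2A, MT1E and MT1X step down from N-scr to H-si, whereas MT1F is higher in both TET1-si libraries, at 6.24 and 5.39 FPKM.

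The other 4 members were at or near 0. MT1A (ENSG00000205362, 56672578 to 56673999), MT1H (ENSG00000205358, 56703726 to 56705041) and MT1M (ENSG00000205364, 56666145 to 56667898), all on the plus strand, were listed at 0 in all 4 libraries. MT1G (ENSG00000125144, minus strand, 56700643 to 56701977) was listed at 0.227 FPKM in N-scr, 0.0982 in H-scr and 0 in both TET1-si libraries, which is about 1 read in N-scr. Members without signal lie among the expressed ones. MT1A and MT1M lie between MT1E and MT1F, and MT1G and MT1H lie between MT1F and MT1X.

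Rows of other metallothionein genes and pseudogenes numbered 12, of which 9 were listed at 0 in every library. MT4 was among the 9. The brain-associated MT3 (ENSG00000087250) was 0.436 (N-scr), 0.136 (N-si), 0.136 (H-scr) and 0 FPKM (H-si). The pseudogene MT1JP was 0.323 (N-scr), 0.121 (N-si), 0.181 (H-scr) and 0.132 FPKM (H-si). MT2P1, a pseudogene of MT2A on chromosome 4, was listed at 3.29 FPKM in H-si and at 0 in the other 3 libraries. It runs from 69242041 to 69242226, which is shorter than the 214 bp taken off lengths to approximate reads. No number of reads is therefore given for it, and its level is uncertain. The combined level of the family with these rows added changed none of the directions given for it.

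Close relatives can share reads, so the similarity of the transcripts was measured. The canonical mRNAs of the members were between 73.4% (MT1E and MT1H) and 90.4% (MT1G and MT1H) identical, and those of MT2A and MT1X were 84.3% identical. Of the 302 windows of 100 nt in MT2A, 56 lay within 2 mismatches of another metallothionein transcript (MT1G, MT1X or MT2P1). The same held for 25 of 647 windows in MT1E, 41 of 305 in MT1X and 0 of 326 in MT1F. The MT1E transcript taken had 746 nt and 2 exons, against 401 nt and 3 exons for MT2A. The share of windows and the identities of MT1E depend on that choice. No window of MT2A, MT1E or MT1X was identical to one elsewhere in the family. How the authors' counting divided such reads is not given in the sources used here. The values of MT2A, MT1E and MT1X are uncertain to that extent. The combined level of the 8 genes depends less on it.

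The 3 abundant metallothioneins were lower in the hypoxia library of both lines, by 2.14- to 3.80-fold. Changes are given as log2(FPKM + 0.1), and a gene was called at 1 or more, which is 2-fold. In scrambled cells 3 of the 4 measured members were called lower and 0 higher. Of all 15057 genes tested, 4.53% were called lower and 12.9% higher in that comparison. In TET1-si cells 3 of 4 were again lower and 0 higher, against 8.66% lower and 12.5% higher of all genes. The median change of the 4 measured members was -1.30 in scrambled and -1.37 in TET1-si cells, and that of all genes was 0.05 and 0.03. Among the 4580 genes averaging 30 FPKM or more, 4.59% were called lower and 5.79% higher in scrambled cells, and 11% lower and 5.44% higher in TET1-si cells. The direction of each abundant member's change was the same under every scaling tried.

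MT2A changed by -1.10 in scrambled cells (-1.17 to -1.02), 2.14-fold lower, and by -1.57 in TET1-si cells (-1.67 to -1.47), 2.97-fold lower. With values rescaled to TPM its change in scrambled cells was -0.98, just short of the 2-fold limit, and 2 rather than 3 members were called. MT1E changed by -1.50 (-1.57 to -1.43), 2.82-fold lower, in scrambled cells and by -1.93 (-2.02 to -1.83), 3.80-fold lower, in TET1-si cells. MT1X changed by -1.73 (-1.97 to -1.51), 3.33-fold lower, in scrambled cells and by -1.17 (-1.46 to -0.90), 2.25-fold lower, in TET1-si cells. The member with the largest fall was thus MT1X in scrambled cells and MT1E in TET1-si cells. MT1F changed by -0.15 in scrambled (-1.27 to 0.89) and -0.21 in TET1-si cells (-0.98 to 0.62), and no hypoxia response of it was detectable at this depth.

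**Figure D3:**
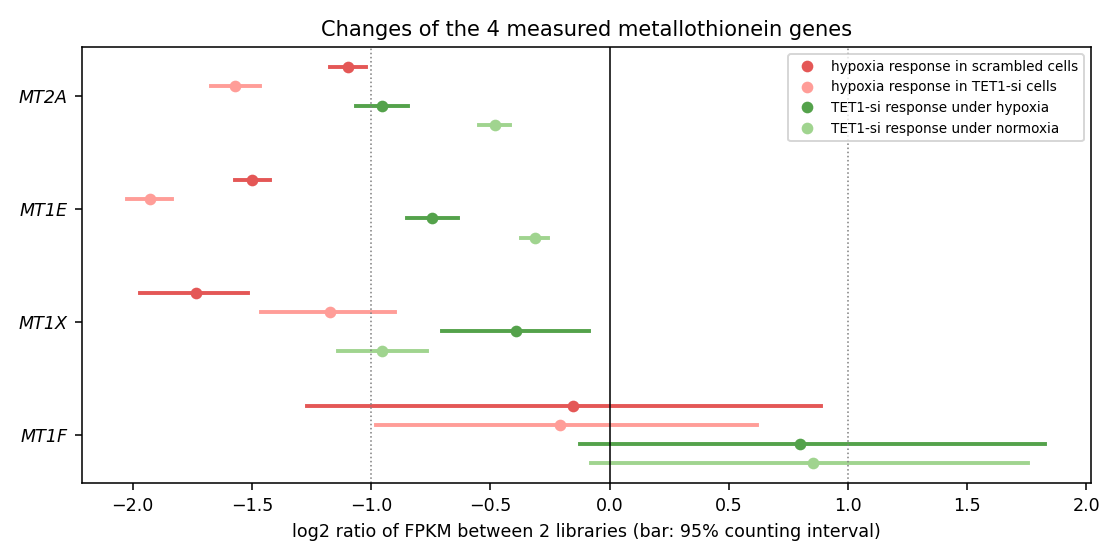
Changes of MT2A, MT1E, MT1X and MT1F in the 4 comparisons, as the log2 ratio of FPKM between 2 libraries on the x axis. Points are the ratios, bars are 95% counting intervals, and dotted lines mark 2-fold. The hypoxia responses of MT2A, MT1E and MT1X all lie below -1, and the 4 intervals of MT1F include 0.

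Among all genes, falls of this size were uncommon but not rare. In scrambled cells 501 of the 15057 genes (3.33%) fell by as much as MT2A, 222 (1.47%) by as much as MT1E and 160 (1.06%) by as much as MT1X. In TET1-si cells the numbers were 515 (3.42%) for MT2A, 268 (1.78%) for MT1E and 987 (6.56%) for MT1X. The distribution of changes was lopsided toward higher values in scrambled cells, where 1937 genes were called higher and 682 lower.

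**Figure D4:**
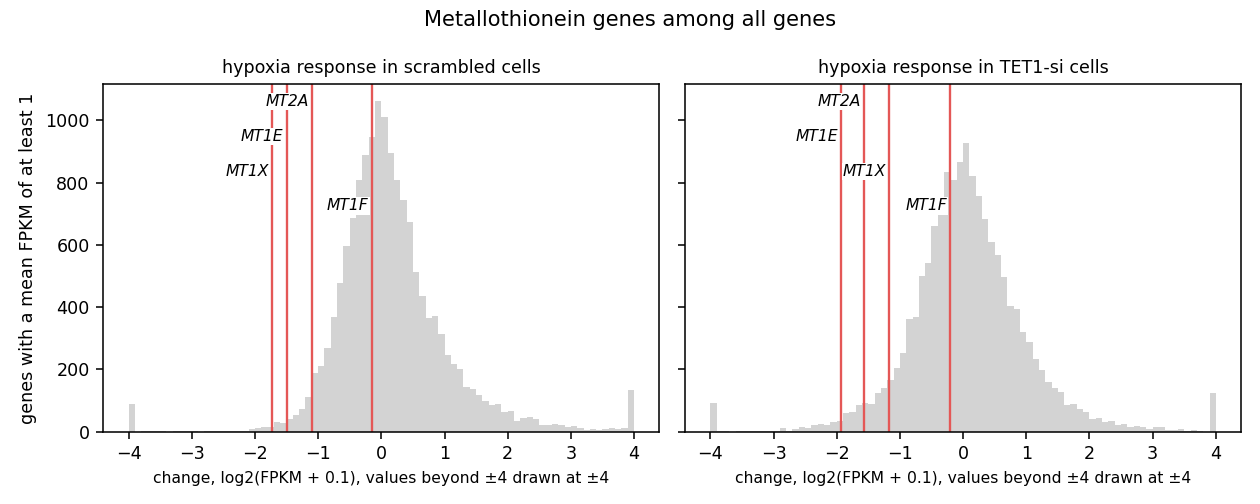
Number of genes, on the y axis, by hypoxia response on the log2(FPKM + 0.1) scale, on the x axis, for the 15057 genes that averaged 1 FPKM or more. Red lines mark the 4 measured metallothioneins. MT2A, MT1E and MT1X lie in the lower tail in both panels and MT1F lies near the middle.

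The response to hypoxia was not of equal size in both lines. Taken as the TET1-si response minus the scrambled response, the difference was -0.47 for MT2A (-0.60 to -0.35) and -0.43 for MT1E (-0.55 to -0.31). For MT1X it was 0.56 (0.21 to 0.92), the opposite sign. The fall under hypoxia was thus larger in the TET1-si line for MT2A and MT1E and smaller for MT1X, by more than counting error. Since the 4 comparisons share libraries, the same numbers are also the difference between the knockdown responses under hypoxia and normoxia. For MT1F the difference was -0.06 (-1.30 to 1.18). Falls were more common among all genes in TET1-si cells, with 8.66% called lower against 4.53% in scrambled cells. The share of genes that fell by as much was 3.33% in scrambled and 3.42% in TET1-si cells for MT2A. It was 1.47% and 1.78% for MT1E, and 1.06% and 6.56% for MT1X. Whether the larger falls of MT2A and MT1E are particular to them was not tested. With 1 library per group the difference between lines was not tested against the spread between cultures.

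The same 3 genes were lower in the TET1-si library of both oxygen states, by less than 2-fold. Under hypoxia 0 of the 4 measured members were called higher or lower, against 12% higher and 8.35% lower of all genes. With median-of-ratios scaling 1478 genes were higher and 1524 lower in this comparison, so the majority turned. Under normoxia 0 of 4 were called as well, against 12.1% higher and 5.56% lower of all genes. Among the genes averaging 30 FPKM or more, 4.93% were higher and 8.69% lower under hypoxia, and 4.41% higher and 4.04% lower under normoxia. MT2A changed by -0.95 under hypoxia (-1.06 to -0.85) and -0.48 under normoxia (-0.55 to -0.42), so that it was 1.94- and 1.40-fold lower. MT1E changed by -0.74 (-0.85 to -0.64), 1.67-fold lower, under hypoxia and by -0.31 (-0.37 to -0.26), 1.24-fold lower, under normoxia. For these genes the knockdown difference was larger under hypoxia. MT1X showed the reverse, with -0.39 (-0.70 to -0.08), 1.31-fold lower, under hypoxia and -0.95 (-1.14 to -0.77), 1.94-fold lower, under normoxia.

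Changes of this size were not rare among all genes. Of the 15057, 1351 (8.97%) fell by as much as MT2A after the knockdown under hypoxia, and 905 (6.01%) by as much as MT1X under normoxia. MT1F was 1.74-fold higher under hypoxia (0.78, -0.12 to 1.83) and 1.81-fold higher under normoxia (0.84, -0.08 to 1.76). These intervals include 0, and 17.7% and 16.1% of all genes rose by as much. Other scalings put MT2A under hypoxia and MT1X under normoxia just past the 2-fold limit, at -1.08 and -1.12 with median-of-ratios factors.

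The combined metallothionein level fell in steps over the 4 libraries. The sum over the 8 genes was 1600.2 (N-scr), 1158.6 (N-si), 673.2 (H-scr) and 375.4 FPKM (H-si). This was 0.194%, 0.146%, 0.0888% and 0.0519% of the column sum of each library. Under hypoxia the sum was 2.38-fold lower in scrambled cells (log2 ratio -1.25, -1.31 to -1.19) and 3.09-fold lower in TET1-si cells (-1.63, -1.70 to -1.55). With the knockdown it was 1.79-fold lower under hypoxia (-0.84, -0.92 to -0.76) and 1.38-fold lower under normoxia (-0.47, -0.51 to -0.42). The difference of the hypoxia responses was -0.38 (-0.47 to -0.28).

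Of the summed FPKM, MT2A made up 62.2% in N-scr and 61.5% in N-si, then 69.1% in H-scr and 64.0% in H-si. MT1E accounted for 28.0%, 31.2%, 23.6% and 25.3% in the same order. MT1X was 9.54% in N-scr and 9.31% in H-si but 6.80% in N-si and 6.81% in H-scr. MT2A exceeded MT1X 6.52-fold in N-scr and 6.88-fold in H-si, against 9.05-fold in N-si and 10.2-fold in H-scr. MT1F rose from 0.215% of the sum in N-scr to 1.44% in H-si.

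The study selected genes by 3 inequalities, which require that H-scr exceed H-si by more than 2 times, that H-scr exceed N-scr and that N-si not exceed N-scr. Applied to all rows of the deposited values, with no filter, they took 2687 of the 62077 rows and 0 of the 8 members. The 3 abundant members met neither the first nor the second condition. H-scr exceeded H-si 1.94-fold for MT2A, 1.67-fold for MT1E and 1.31-fold for MT1X, and all 3 were lower in H-scr than in N-scr.

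Genes that sense or transport zinc are described by counts and medians, to be read against the shares of all genes called above and the medians of all genes, which were 0.05 and 0.03 for hypoxia in scrambled and TET1-si cells and 0.10 and 0.15 for the knockdown under hypoxia and normoxia. MTF1 was 4.92 (N-scr), 7.09 (N-si), 4.69 (H-scr) and 3.72 FPKM (H-si). The response of MTF1 to hypoxia was -0.07 in scrambled and -0.91 in TET1-si cells, below the call limit in both. SLC30A1, the zinc exporter of the plasma membrane and an MTF1 target, was 7.77 (N-scr), 6.60 (N-si), 3.58 (H-scr) and 3.52 FPKM (H-si). It was called lower under hypoxia in scrambled cells (-1.09) and was -0.89 in TET1-si cells. Its knockdown responses were -0.03 under hypoxia and -0.23 under normoxia.

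Of the 6 genes in the list of MTF1 and its further targets, all measured, 2 were called lower and 0 higher under hypoxia in scrambled cells, and 0 lower and 1 higher in TET1-si cells. The 2 lower were SLC30A1 and C11orf31, the older symbol of the selenoprotein gene SELENOH, which fell from 63.3 FPKM (N-scr) to 26.6 (H-scr), a change of -1.25 in scrambled cells, and changed by -0.17 in TET1-si cells. The higher gene was PGF, a growth factor of the VEGF family, at 0.801 FPKM in N-si and 1.93 in H-si (1.17). In scrambled cells it went from 0.888 to 1.86 FPKM (0.99), just short of the call. In scrambled and TET1-si cells SLC39A10 changed by -0.55 and -0.19, and GCLC by 0.02 and -0.43. The medians of the list were -0.31 in both lines. The list holds MTF1 itself beside its targets, so its median is not a measure of MTF1 activity. No gene of the list was called after TET1 knockdown in either oxygen state. Its median was then -0.18 under normoxia, and under hypoxia it was 0.01, which turned to -0.11 with median-of-ratios and -0.04 with upper-quartile scaling.

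Of 14 zinc importers (SLC39A genes) 11 were measured, with 0 called under hypoxia in scrambled cells and 1 called lower in TET1-si cells. After TET1 knockdown 1 was higher and 2 lower under hypoxia, and 1 was lower under normoxia. SLC39A6, a plasma membrane zinc importer, was lower in both TET1-si libraries, at 32.8 FPKM in N-scr against 3.22 in N-si and at 21.8 in H-scr against 4.42 in H-si. Its changes were -3.31 under normoxia and -2.28 under hypoxia. The importers' medians were -0.16 for hypoxia in TET1-si cells and -0.12 for the knockdown under hypoxia. The median for hypoxia in scrambled cells was -0.11, and 0.00 in TPM. For the knockdown under normoxia it was 0.08, but -0.08 with median-of-ratios and -0.04 with upper-quartile scaling. Of 10 zinc exporters (SLC30A genes) 6 were measured, and SLC30A1 was the only called change in the 4 comparisons. The exporters' medians were -0.24 and -0.19 for hypoxia in scrambled and TET1-si cells, and -0.18 and -0.31 for the knockdown under hypoxia and normoxia.

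Copper handling was mixed. Of 15 genes 13 were measured, with 2 higher and 0 lower under hypoxia in scrambled cells and 3 higher and 1 lower in TET1-si cells. STEAP4, a metalloreductase, was 1.95 (N-scr), 4.50 (N-si), 4.88 (H-scr) and 10.7 FPKM (H-si), higher with each condition. SLC31A2, a relative of the main copper importer, rose with hypoxia from 1.11 to 2.39 FPKM in the scrambled line and from 0.699 to 2.45 in the TET1-si line. After knockdown the called genes numbered 2 up and 1 down in hypoxia, with 2 in either direction in normoxia. The shares of all genes were then 12% higher and 8.35% lower in hypoxia, and 12.1% and 5.56% in normoxia. The median of the copper list was -0.21 for hypoxia in scrambled cells and 0.26 for the knockdown under hypoxia, and its sign in the other comparisons changed with the scaling. SOD1, the copper and zinc superoxide dismutase, was higher in both TET1-si libraries, at 91.3 FPKM in N-scr against 213.3 in N-si and 64.1 in H-scr against 152.8 in H-si.

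Glucocorticoid signalling was examined because glucocorticoids also induce the family. NR3C1, the glucocorticoid receptor, was 39.2 (N-scr), 47.9 (N-si), 30.4 (H-scr) and 49.4 FPKM (H-si), and was not called in any of the 4 comparisons. FKBP5, a chaperone partner of the receptor and a common target of it, fell with hypoxia, from 13.1 to 6.45 FPKM in the scrambled line (-1.01) and from 19.7 to 6.61 FPKM in the TET1-si line (-1.56). Of the 8 genes in the list 6 were measured. Under hypoxia 1 was higher and 1 lower in each line, and the list's median was 0.58 in scrambled and 0.20 in TET1-si cells. The lower gene was FKBP5 in both, and the higher was DUSP1 in the scrambled and TSC22D3 in the TET1-si line. Most other measured targets thus moved opposite to FKBP5. DUSP1 rose from 4.10 to 9.23 FPKM in the scrambled line and from 4.73 to 6.66 in the TET1-si line. In the same order of lines TSC22D3 changed by 0.98 and 1.06, PER1 by 0.55 and 0.36, and SGK1 by 0.61 and -0.21. After knockdown 1 gene was called lower under hypoxia and 0 under normoxia, with medians of -0.07 (0.00 in TPM) and 0.25. These counts are to be read against the shares of all genes given for copper handling.

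Genes around the cluster did not all fall under hypoxia. Within 1 Mb of it on chromosome 16 there were 29 protein-coding genes other than metallothioneins, of which 19 were measured. Under hypoxia 2 were called higher and 1 lower in scrambled cells, and 2 higher and 1 lower in TET1-si cells. The shares across all genes were 12.9% higher and 4.53% lower for the scrambled line, against 12.5% and 8.66% for the TET1-si line. With so few neighbours called, a departure from these shares was not tested. The median change of the neighbours was 0.40 and -0.01, with a range of -1.04 to 2.45 and -1.52 to 1.50. The second median turned to 0.10 with upper-quartile scaling and 0.13 in TPM. The nearest measured neighbours on either side differed in direction. BBS2, part of the BBSome complex of primary cilia, was 56.4 (N-scr), 89.5 (N-si), 99.3 (H-scr) and 146.7 FPKM (H-si). NUP93, a nuclear pore component on the other side, was 91.4 (N-scr), 94.2 (N-si), 57.9 (H-scr) and 32.7 FPKM (H-si).

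OGFOD1, a ribosomal protein hydroxylase that partly overlaps BBS2 and NUDT21, was 58.7 (N-scr), 62.8 (N-si), 28.6 (H-scr) and 32.5 FPKM (H-si). Reads in the overlaps cannot be told apart from those of BBS2 or NUDT21. Both lie on the strand opposite to OGFOD1, and no source used here says that strand was kept. The hypoxia response of OGFOD1 was -1.04 in scrambled and -0.95 in TET1-si cells. DOK4, an adaptor protein, was 2.25 (N-scr), 4.81 (N-si), 7.35 (H-scr) and 13.7 FPKM (H-si). It was called higher under hypoxia in both lines. The strongest response in scrambled cells was that of PLLP at 2.45, which was -0.23 in TET1-si cells. After TET1 knockdown 4 neighbours were higher under normoxia and 2 under hypoxia, and 0 were lower in either state. Of all genes 12.1% were higher and 5.56% lower under normoxia, and 12% and 8.35% under hypoxia. The median change of the neighbours was 0.32 under normoxia. Under hypoxia it was 0.05, which turned to -0.07 with median-of-ratios and 0.00 with upper-quartile scaling. GNAO1, a G protein subunit, was higher in both states, at 6.21 FPKM in N-scr against 20.1 in N-si and 6.05 in H-scr against 27.3 in H-si.

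Other measured neighbours included NUDT21, HERPUD1, NLRC5, CPNE2, FAM192A, RSPRY1, ARL2BP, CIAPIN1, COQ9, POLR2C, CCDC102A and GPR56. HERPUD1, a stress protein of the endoplasmic reticulum, changed under hypoxia by 0.42 in scrambled and 0.45 in TET1-si cells. CIAPIN1 was -0.48 and -0.62, and COQ9 was -0.25 and -0.14.

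**Figure D5:**
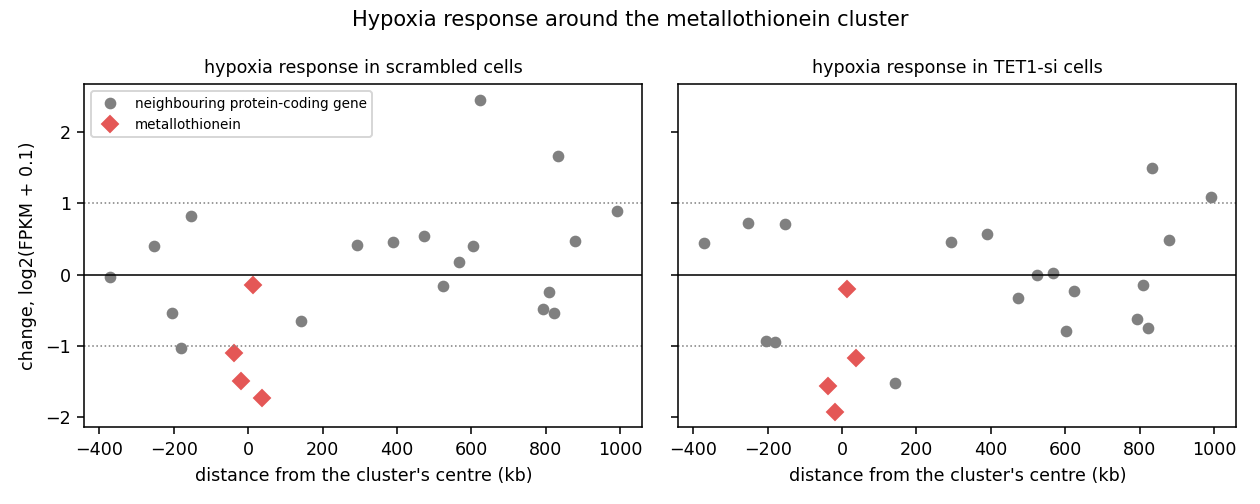
Hypoxia response on the log2(FPKM + 0.1) scale, on the y axis, of the measured genes within 1 Mb of the metallothionein cluster, by distance from the centre of the cluster in kb on the x axis. Red diamonds are the 4 measured metallothioneins and grey points the 19 neighbours. MT2A, MT1E and MT1X lie below -1 in both panels, while BBS2 lies at 0.82 and 0.71 and NUP93 at -0.66 and -1.52.

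Genes whose levels followed those of the summed metallothioneins over the 4 libraries were sought by the distance between centred log2(FPKM + 0.1) values. Among 9462 protein-coding genes averaging 5 FPKM or more, the 5 nearest were PDCD2L, NOP16, MRPL3, HSPE1 and MTHFD1L, at distances of 0.0908 to 0.169. The median distance was 1.65. PDCD2L, a protein implicated in ribosome assembly, was 33.9 (N-scr), 22.9 (N-si), 14.0 (H-scr) and 7.98 FPKM (H-si). NOP16, a nucleolar protein, was 86.1 (N-scr), 65.5 (N-si), 33.5 (H-scr) and 19.9 FPKM (H-si). MRPL3, of the mitochondrial ribosome, was 222.2 (N-scr), 146.9 (N-si), 81.3 (H-scr) and 50.8 FPKM (H-si). All had the order of libraries of MT2A. HSPE1, the mitochondrial chaperonin subunit, was 548.4 (N-scr), 372.6 (N-si), 234.3 (H-scr) and 140.8 FPKM (H-si). MTHFD1L, a mitochondrial folate enzyme, was 66.7 (N-scr), 54.3 (N-si), 31.3 (H-scr) and 18.2 FPKM (H-si). Of the members themselves, MT2A lay at 0.132 from the sum of which it is the largest part, MT1E at 0.304, MT1X at 0.471 and MT1F at 1.94. Over only 4 libraries this likeness is a description.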

How the data were processed

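RNA-Seq of 4 FaDu libraries was analysed, 1 per group. The authors made TruSeq mRNA libraries, sequenced 100 bp reads on an Illumina HiSeq2000, and aligned them to hg19 with TopHat and Cufflinks using Ensembl annotations. The labels give single-end and the study's methods paired-end reads. Tool versions, filters, strand handling and the Ensembl release are not given in the sources used here. The values are FPKM as deposited by the authors, a value per gene and library. Start positions count from 0, so 1 was added. The 111 gene IDs on more than 1 row (232 rows) were left out of the counts.

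Changes were computed as log2(FPKM + 0.1), which understates the change of low genes, over 15057 genes averaging 1 FPKM or more. Fold values and counting intervals carry no pseudocount. Depth was recovered from 5266 genes of 1 exon, whose FPKM are whole reads divided by depth and by length less an offset. Low values came out whole within 0.05 in 97.2% to 97.7% of cases. Approximate reads were FPKM times depth times the canonical transcript length (GENCODE v44lift37) less 214 bp. Since these mRNAs are short, the reads and the levels between genes depend on that offset. They depend also on the transcript taken, which was 746 nt for MT1E against 401 nt for MT2A and 404 nt for MT1X. With a shorter transcript MT1E would be given fewer reads and wider intervals. Intervals are 95% Clopper-Pearson, and those of differences and sums are approximations from the same reads. Python 3.11.15, pandas 2.3.3, numpy 2.4.6, scipy 1.17.1, Biopython 1.88 and matplotlib 3.10.9 were used, and the depth search was tested on simulated data.

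Alternatives were 2 other pseudocounts, no filter and a filter of 5 FPKM, median-of-ratios and upper-quartile scaling, TPM, a sum of reads and a sum over all metallothionein rows. The genes named were the members, TET1, other metallothionein rows above 0, listed genes called the same way in both states, MTF1, SLC30A1, NR3C1, measured neighbours and the 5 nearest profiles. Of the measured neighbours, 1 is counted but not reported here by name. C11orf31, PGF, PLLP, SLC39A10, GCLC, TSC22D3, DUSP1, PER1 and SGK1 were named after their values were seen. The members and lists were chosen with earlier results of these data known.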

Additional observations from a re-analysis of the deposited data

Results flagged for a closer look

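The genes in the following sentences had changes of opposite sign in the 2 states compared, with counting intervals that exclude 0 on both sides. All values are log2(FPKM + 0.1), and with 1 library per group none of the differences was tested. No metallothionein was among them. MTF1, the zinc-sensing factor of the family, was 0.52 after TET1 knockdown under normoxia and -0.32 under hypoxia, a difference of -0.84. The zinc importer SLC39A6 responded to hypoxia by -0.59 in scrambled and 0.45 in TET1-si cells, a difference of 1.03.

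Of the neighbours of the cluster, 4 had knockdown responses of opposite sign. The difference, hypoxia less normoxia, was -0.87 for NUP93 (0.04 and -0.82), -0.39 for NUDT21 (0.32 under normoxia and -0.07 under hypoxia), -2.68 for PLLP (1.89 and -0.79) and -0.21 for POLR2C (0.09 and -0.12). In a check of the scaling chosen after seeing the data, the opposite signs of NUP93 and POLR2C were lost. Their values under normoxia were -0.12 and -0.07 with median-of-ratios and -0.08 and -0.03 with upper-quartile scaling. The other 6 genes kept opposite signs under these scalings and in TPM, although NUDT21 under hypoxia was at -0.0016 in TPM. Hypoxia responses of opposite sign were those of CPNE2, 0.54 in scrambled and -0.33 in TET1-si cells, and of ARL2BP, 0.41 and -0.79. Their differences were -0.87 and -1.20.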

How the results depend on the processing

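No paired analysis was possible because each group had 1 library and no replicate numbers. Of 80 values of single members under other settings, 68 moved by less than their counting interval, 12 moved further and 0 changed direction. The count of members called lower after TET1 knockdown under hypoxia was 0, and was 1 (MT2A) with median-of-ratios and 1 with upper-quartile scaling (-1.08 and -1.01). Under normoxia it was 0, and was 1 (MT1X) with either of these scalings (-1.12 and -1.07) and 1 (MT1G, about 1 read) with no filter. The log2 change of the summed family under hypoxia in scrambled cells was -1.13 in TPM and -1.33 from approximate reads, and in TET1-si cells -1.52 with upper-quartile scaling, -1.49 in TPM and -1.73 from reads. After knockdown under hypoxia it was -0.96 with median-of-ratios scaling, and under normoxia -0.63 with median-of-ratios, -0.59 with upper-quartile scaling, -0.42 in TPM and -0.41 from reads. These scalings shift the median of all genes, by -0.15 with median-of-ratios and -0.12 with upper-quartile scaling for the knockdown under normoxia, by -0.11 with median-of-ratios for the knockdown under hypoxia, and by 0.12 and 0.13 in TPM for hypoxia in scrambled and TET1-si cells. Upper-quartile scaling shifts the last by 0.10. With median-of-ratios scaling the share of higher among called genes after knockdown under normoxia was 56.0% rather than 68.6%, and under hypoxia 49.2% rather than 59.0%. Depth limits MT1F and MT1G, and the intervals do not cover differences between cultures.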
